A study of Homo sapiens with 10 samples.

Results

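The G2 and M phase genes described here are 55 genes that act between the end of DNA replication and the separation of the daughter cells. They were taken from a list of names that covers the cyclin B and CDK1 engine, the mitotic kinases, the spindle checkpoint, anaphase promotion, the kinetochore, the mitotic kinesins, the spindle and cytokinesis proteins, and the condensins. The list names genes by their role, and it was chosen with earlier results of these data known. A member was followed through the probe sets that carry its symbol and no other. All 55 genes were on the array, by 85 probe sets of the 22215 that are not controls, which carried 11963 genes under a single symbol. A filter kept the 45.6% of probe sets whose second-highest value over the arrays was at least 7.31, and with it 74 probe sets of 53 members and 6370 genes in all. KIF18A and KIF23, both kinesin motors of dividing cells, were kept by no probe set. Their values ran from 4.89 to 6.82 for KIF18A and from 5.10 to 6.43 for KIF23, with the lowest in each on an HGF 1 h array. In a limma fit without the filter KIF18A differed by -1.22 between HGF 1 h and untreated cells (SE 0.25, adjusted p = 0.0181) and by 0.89 between HGF 6 h and 1 h (SE 0.25, adjusted p = 0.0399). KIF23 differed by -0.61 (SE 0.20, adjusted p = 0.114) and 0.95 (SE 0.20, adjusted p = 0.00999) in these comparisons by the same limma fit, and neither gene is counted among the called members below. Under a filter on the mean over all arrays 52 members were kept.

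RNA was measured on 10 Affymetrix hgu133a arrays of MDA-MB-435 cells, an established human line of melanoma origin, in 5 groups of 2 arrays. The groups were cells stably transduced with integrin beta 4 (ITGB4), cells after 1, 6 and 24 h with hepatocyte growth factor (HGF), and untreated cells. Each group is described as biological duplicates, with no statement on separate cultures, so p-values measure the spread between these arrays. The word Mock stands in the descriptions of both ITGB4 samples, and with no mock-transduced group used here, ITGB4 and the transduction itself cannot be told apart. Untreated cells are a single group with no time given, so each HGF time was set against the same pair of arrays. HGF is the ligand of the receptor MET and drives growth, scattering and invasion of epithelial and tumour cells.

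A cell enters mitosis when cyclin A and cyclin B switch on CDK1 and the kinases PLK1, Aurora A and Aurora B join in. Condensins and topoisomerase II pack the chromosomes, kinesins and their partners build the spindle, and kinetochores tie the chromosomes to it. The spindle checkpoint holds back the anaphase-promoting complex until all chromosomes are attached, after which CDC20 and UBE2C drive the destruction of cyclin B and securin. Most of these genes are transcribed late in the cycle under the DREAM and MuvB complexes, B-MYB and FOXM1. Their promoters often hold a CCAAT box, bound by NF-Y, and a cell cycle genes homology region (CHR), bound by MuvB. In a bulk sample, fewer cells in G2 and M and less RNA per such cell cannot be told apart.

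The promoters of 47 of the 55 members were found in a table of RefSeq sequences (GRCh38.p14, 60 promoters of these 47 genes). Both motifs were searched on both strands in the 250 bases before each annotated start, the CCAAT box as CCAAT and the CHR as TTTGAA. A second form of the CHR that was searched in the same way is TTCGAA. Promoters with the CCAAT box belonged to 36 of the 47 genes (76.6%) against 37.0% of all 27305 genes in the table. Promoters with the CHR belonged to 27 of the 47 genes (57.4%) against 17.2% of all genes. Both were present in 23 of the 47 genes (48.9%) against 6.24% of all genes. The 150 bases before the start are printed for 3 members that were lower after 1 h with HGF (HMMR, CDK1 and KIF11) and for 3 members that were not called there (PLK1, CCNB2 and CDC20), chosen after their values were seen so that the promoters of both kinds can be set side by side. Capitals mark a CCAAT box (ATTGG where it lies on the other strand) or a CHR (TTCAAA where TTTGAA lies on the other strand), and the 2 CCAAT boxes of HMMR nearest the start overlap each other. All 6 genes lie on the plus strand, at chr5:163460482-163460631 (HMMR), chr10:60778328-60778477 (CDK1), chr10:92592980-92593129 (KIF11), chr16:23678739-23678888 (PLK1), chr15:59104996-59105145 (CCNB2) and chr1:43358831-43358980 (CDC20).
HMMR: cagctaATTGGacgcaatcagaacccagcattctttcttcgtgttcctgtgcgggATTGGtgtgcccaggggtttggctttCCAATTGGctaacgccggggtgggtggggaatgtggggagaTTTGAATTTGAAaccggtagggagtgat
CDK1: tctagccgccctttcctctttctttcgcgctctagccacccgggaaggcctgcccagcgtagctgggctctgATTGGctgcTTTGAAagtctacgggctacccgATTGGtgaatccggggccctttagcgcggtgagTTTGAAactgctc
KIF11: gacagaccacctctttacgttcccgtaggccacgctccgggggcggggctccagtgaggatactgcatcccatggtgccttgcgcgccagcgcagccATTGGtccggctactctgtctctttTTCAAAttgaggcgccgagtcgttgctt
PLK1: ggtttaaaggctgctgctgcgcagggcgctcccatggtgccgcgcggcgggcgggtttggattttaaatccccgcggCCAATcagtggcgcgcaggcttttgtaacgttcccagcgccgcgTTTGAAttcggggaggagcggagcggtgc
CCNB2: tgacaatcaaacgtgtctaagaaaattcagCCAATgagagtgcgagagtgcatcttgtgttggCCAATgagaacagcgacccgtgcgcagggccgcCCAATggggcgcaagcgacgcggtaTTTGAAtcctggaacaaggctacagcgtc
CDC20: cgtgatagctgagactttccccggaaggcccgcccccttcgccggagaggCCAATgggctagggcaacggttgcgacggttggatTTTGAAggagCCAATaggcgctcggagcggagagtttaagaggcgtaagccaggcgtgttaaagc
The CHR nearest the start began 22 bases before it in HMMR, 13 in CDK1, 28 in KIF11, 29 in PLK1, 29 in CCNB2 and 65 in CDC20. Both motifs stood in each of these 6 promoters, which were picked and so do not stand for the other members. For CDK1, which has 2 promoters, the one with the most matches was printed. Among the members with a promoter, both motifs stood in 7 of 10 genes that were lower after 1 h and in 14 of the 35 other kept genes. With the 50 bases after the start included, they stood in 8 of 10 and 19 of 35. A match of letters is a description of the sequence, not a measured binding site.

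The deposited values are on a log2 scale after robust multi-array averaging (RMA), so a difference of 1 is a change of 2-fold. Values over all arrays ran from 2.19 to 14.28 and the array medians from 6.81 to 6.88. Most melanocyte lineage markers were high, with a median of 11.05 over 11 genes (array medians 10.90 to 11.48), and among them MLANA averaged 11.93 and TYR 11.88. The filter kept 9 of the 11, and OCA2 at 6.94 and SLC45A2 at 6.32 were low and not kept. The epithelial markers had a median of 6.20 over 11 genes and the fibroblast markers of 6.34 over 10 genes. The filter kept 3 genes of each, with KRT18 at 9.63 the highest epithelial marker and DCN at 8.29 the highest fibroblast marker. ITGB4 had 4 probe sets, and the brightest was at 13.23 and 12.96 in the ITGB4 cells, against 6.70 and 6.58 in untreated cells. Of the other ITGB4 probe sets, 2 were likewise high in the ITGB4 cells, and the last, which the filter did not keep, was at 5.06 and 5.47 in ITGB4 cells, against 5.23 and 4.90 in untreated cells. Differences were tested with limma over all kept probe sets, with the spread taken from all 5 groups and Benjamini-Hochberg adjustment within a comparison. A gene was called when any of its kept probe sets had an adjusted p under 0.05. An exact permutation test of 2 arrays against 2 cannot go below a two-sided p of 0.333, so none is given for single genes.

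After 1 h with HGF, 11 of the 53 kept G2 and M genes were lower than in untreated cells and 0 were higher, while 6.42% of all kept genes were called lower and 0.832% higher. The lower genes were ASPM, SMC2, HMMR, TTK, SMC4, CDK1, DLGAP5, ECT2, MAD2L1, TOP2A and KIF11. They belong to the spindle, the checkpoint, the condensins and the CDK1 engine, and their called probe sets fell by 0.92 to 2.11 on the log2 scale. The median difference of the 53 genes was -0.10, against 0.07 over all 6370 genes. Of the 74 probe sets, 51 were below 0 and 23 above, and 27 passed an unadjusted limma p of 0.05, each of them lower. Over all kept probe sets 2692 passed that cut in either direction, a smaller share than among the members. The HGF 1 h and untreated arrays did not overlap for 29 probe sets that were lower and 2 that were higher, where 25.9% of all kept probe sets were without overlap and lower and 34% without overlap and higher. The count was 0 with either untreated array left out and 0 with HGF 1 h replicate 1 left out. It was 7 when either HGF 6 h array was left out, and 15 with HGF 1 h replicate 2 left out.

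Among the spindle and cytokinesis proteins 4 of 10 kept genes fell after 1 h. ASPM, which focuses microtubules at the spindle poles, was at 6.18 and 7.28 after 1 h with HGF, against 8.56 and 9.11 in untreated cells, a fall of 2.11 (SE 0.36, limma adjusted p = 0.0194). Both HGF arrays lay below both untreated arrays, and replicate 1 was the lowest of all 10 arrays. The difference was the largest of the 53 genes in size. Against the untreated mean, the first HGF 1 h array alone gave -2.66 and the second alone -1.56. HMMR, which binds hyaluronan and spindle microtubules, was at 7.44 and 8.22 after 1 h on its called probe set, against 8.88 and 9.24 in untreated cells, and fell by 1.23 (SE 0.24, limma adjusted p = 0.0239). Its other probe set differed by -1.09 and was not called (limma adjusted p = 0.0827). DLGAP5, a microtubule-binding protein that stabilises spindle fibres, was at 8.32 and 8.82 after 1 h, against 9.35 and 9.86 in untreated cells, and fell by 1.03 (SE 0.20, limma adjusted p = 0.0233). ECT2, the exchange factor that activates RhoA for cytokinesis, was at 6.79 and 7.37 after 1 h, against 7.88 and 8.33 in untreated cells, and fell by 1.02 (SE 0.21, limma adjusted p = 0.0273). In each of these genes the HGF 1 h arrays lay below the untreated arrays without overlap. The other 6 genes of the group were not called. NUSAP1, which bundles spindle microtubules, differed by -0.45 and -0.52 on its 2 probe sets, and PRC1, RACGAP1, TPX2, SPAG5 and TACC3 lay between -0.18 and 0.21.

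Among the condensin and chromosome proteins 3 of 7 kept genes fell. SMC2, the ATPase core shared by both condensins, was at 6.81 and 7.77 after 1 h on the brighter of its 2 probe sets, against 8.43 and 8.76 in untreated cells, and fell by 1.30 (SE 0.27, limma adjusted p = 0.0265). Its second probe set fell as well, by 0.92 (SE 0.20, limma adjusted p = 0.0291). SMC4, its partner in the core, was at 9.10 and 9.85 after 1 h on its called probe set, against 10.46 and 10.86 in untreated cells, and fell by 1.18 (SE 0.26, limma adjusted p = 0.0303). The other kept probe set of SMC4 differed by -1.06 (limma adjusted p = 0.0564). TOP2A, the topoisomerase that untangles sister DNA, was at 7.85 and 7.93 after 1 h on its called probe set, against 8.49 and 9.22 in untreated cells, and fell by 0.97 (SE 0.22, limma adjusted p = 0.0321). Its other probe set was at 8.17 and 8.90 after 1 h, against 9.05 and 9.58 in untreated cells, with a difference of -0.78 (limma adjusted p = 0.0671). The arrays of the 3 genes did not overlap on any kept probe set. The non-SMC subunits were not called: NCAPG differed by -0.81 and -0.93 on its 2 probe sets, NCAPH by -0.08 and NCAPD2 by 0.15. MKI67, which coats mitotic chromosomes and is the Ki-67 proliferation marker, differed by -0.37 to -0.13 over 4 probe sets and was not called.

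In the spindle checkpoint 2 of 5 kept genes fell. TTK, the kinase that starts the checkpoint at kinetochores, was at 7.25 and 8.19 after 1 h, against 8.62 and 9.28 in untreated cells, and fell by 1.23 (SE 0.27, limma adjusted p = 0.0303). The difference of TTK was -0.76 without the first HGF 1 h array and -1.70 without the second. MAD2L1, which binds CDC20 while chromosomes are unattached, was at 7.01 and 7.09 after 1 h, against 7.74 and 8.32 in untreated cells, and fell by 0.98 (SE 0.22, limma adjusted p = 0.0322). The 2 HGF arrays were close to each other in MAD2L1 and far apart in TTK, and in both genes they stayed below the untreated arrays. BUB1, the kinase that recruits the checkpoint proteins, was at 7.81 and 7.93 after 1 h on the brighter of its 2 probe sets, against 7.69 and 8.44 in untreated cells. The untreated arrays of BUB1 enclosed the HGF arrays, with a difference of -0.20 (limma adjusted p = 0.592). BUB1B, the checkpoint partner of MAD2L1 in holding CDC20, differed by -0.41, and BUB3, which brings BUB1 and BUB1B to kinetochores, by -0.49 to -0.04 over 4 probe sets.

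CDK1 was the single gene of 9 in the cyclin, CDK and transcription group that fell. Its called probe set was at 8.19 and 8.92 after 1 h, against 9.48 and 9.98 in untreated cells, and fell by 1.17 (SE 0.22, limma adjusted p = 0.0225). The other 2 probe sets of CDK1 differed by -0.85 (limma adjusted p = 0.0815) and -0.63 (limma adjusted p = 0.237), so the probe sets of this gene did not give the same size. CCNB1, the cyclin that CDK1 works with in mitosis, was at 9.99 and 10.26 after 1 h, against 9.69 and 10.16 in untreated cells. The arrays of CCNB1 overlapped, with a difference of 0.20 (limma adjusted p = 0.622). CCNB2, FOXM1, CKS1B, CKS2, CDC25B and CDC25C, which are cyclin B2, a transcription factor of G2 genes, the small CDK-binding proteins and the phosphatases that activate CDK1, lay between -0.09 and 0.25. CCNA2, cyclin A2, differed by -0.18 and -0.41.

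KIF11, the motor that pushes the spindle poles apart, was at 6.58 and 6.65 after 1 h, against 7.19 and 7.92 in untreated cells, and fell by 0.93 (SE 0.22, limma adjusted p = 0.0352). It was the single called gene of the 6 kept kinesins. KIF14, a motor of cytokinesis, differed by -1.20 (limma adjusted p = 0.0671), KIF15, a motor that can replace KIF11 on the spindle, by -0.74, and KIF4A, KIF20A and KIF2C lay between -0.10 and 0.14. None of the 7 kept centromere and kinetochore genes was called. CENPE, the motor that carries chromosomes to the spindle equator, was at 5.73 and 6.57 after 1 h, against 7.29 and 7.70 in untreated cells, a difference of -1.35 (SE 0.37, limma adjusted p = 0.0566). CENPF differed by -1.09 (limma adjusted p = 0.0571) and NDC80, which grips the microtubule end, by -0.99 (limma adjusted p = 0.0792). In the limma fit without the filter, a CENPF probe set that was not kept differed by -1.05 (SE 0.27, adjusted p = 0.0466). Between HGF 6 h and 1 h it differed by 0.98 (SE 0.27, limma adjusted p = 0.0368). Another CENPF probe set that was not kept differed by -0.19 and 0.32 (limma adjusted p = 0.507 and 0.195). CENPA, ZWINT, BIRC5 and CDCA8 lay between -0.17 and 0.11.

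The 5 mitotic kinases outside the checkpoint and the 4 anaphase genes were not called after 1 h. PLK1, the kinase of mitotic entry, was at 9.11 and 9.47 after 1 h, against 8.98 and 9.64 in untreated cells. The untreated arrays of PLK1 enclosed the HGF arrays, with a difference of -0.02 (SE 0.28, limma adjusted p = 0.972). AURKA and AURKB, the Aurora kinases of the spindle poles and the chromosome passenger complex, differed by 0.02 to 0.34, while MELK differed by -0.42 and NEK2, a centrosome kinase, by -0.58 and -0.39. CDC20, UBE2C, PTTG1 and CDCA3 were on the positive side, by 0.08 to 0.39. Among the called genes, the 1 h mean was under 7.31, the filter's cut on the second-highest value, for ASPM, SMC2, ECT2, MAD2L1 and KIF11. At such levels a fold change is only approximate.

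**Figure D1:**
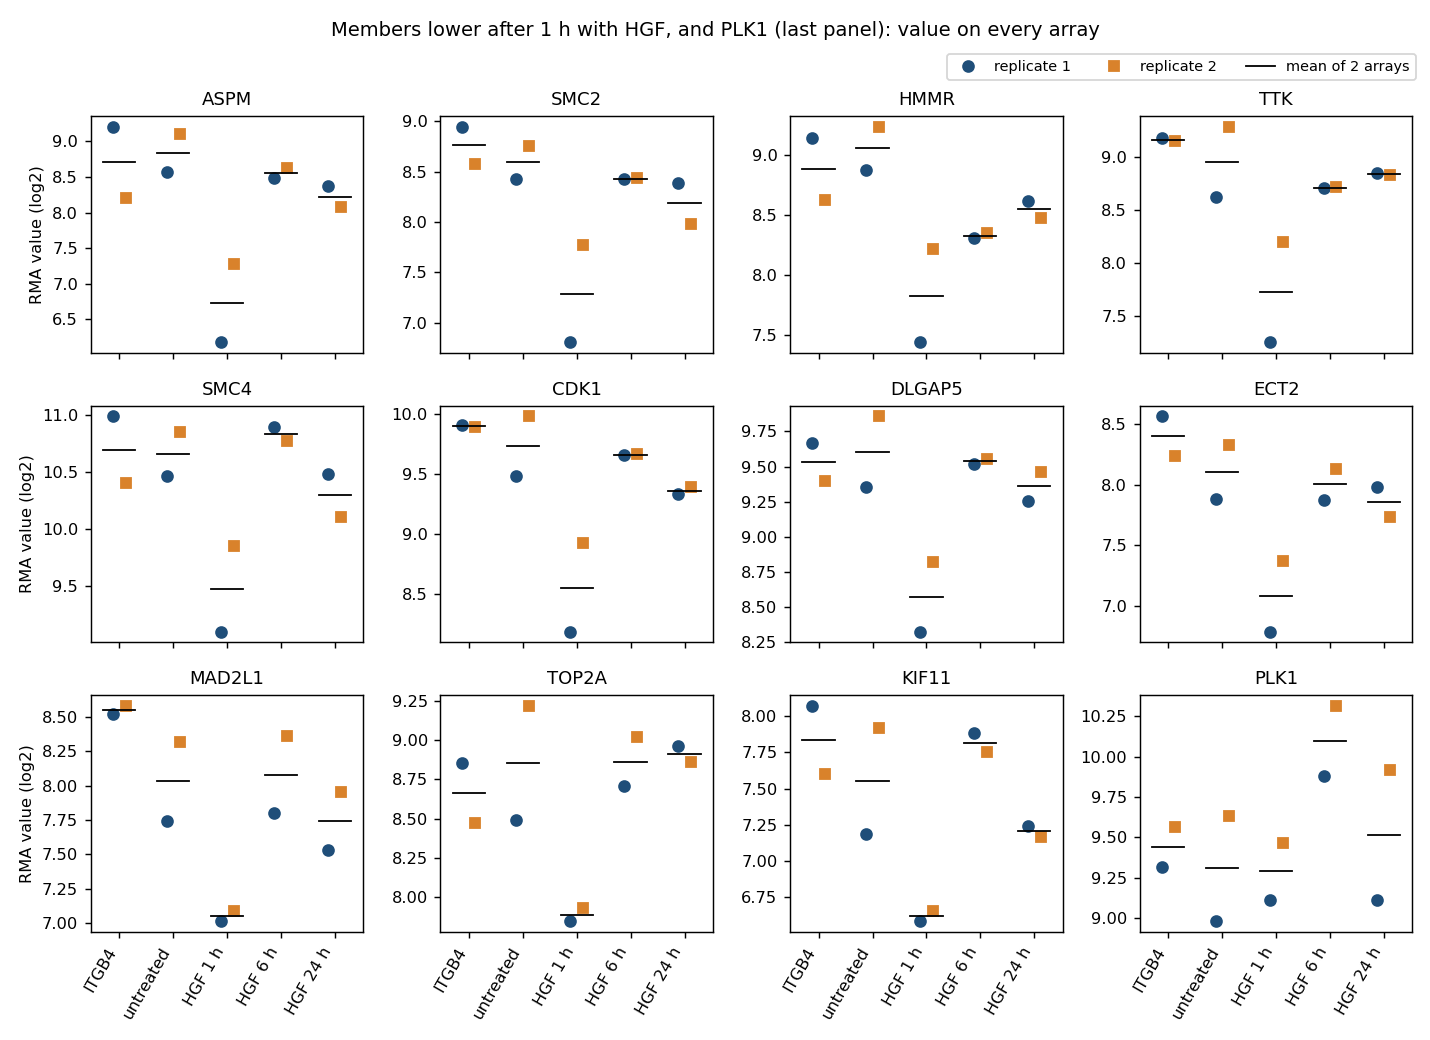
RMA value (log2, vertical axes) on each of the 10 arrays for the 11 genes called lower after 1 h with HGF and for PLK1, by group (horizontal axis), where circles are replicate 1, squares replicate 2 and bars the mean of 2 arrays. In the 11 genes both HGF 1 h arrays lie below both untreated arrays, while in PLK1 they lie between them at 9.11 and 9.47.

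**Figure D2:**
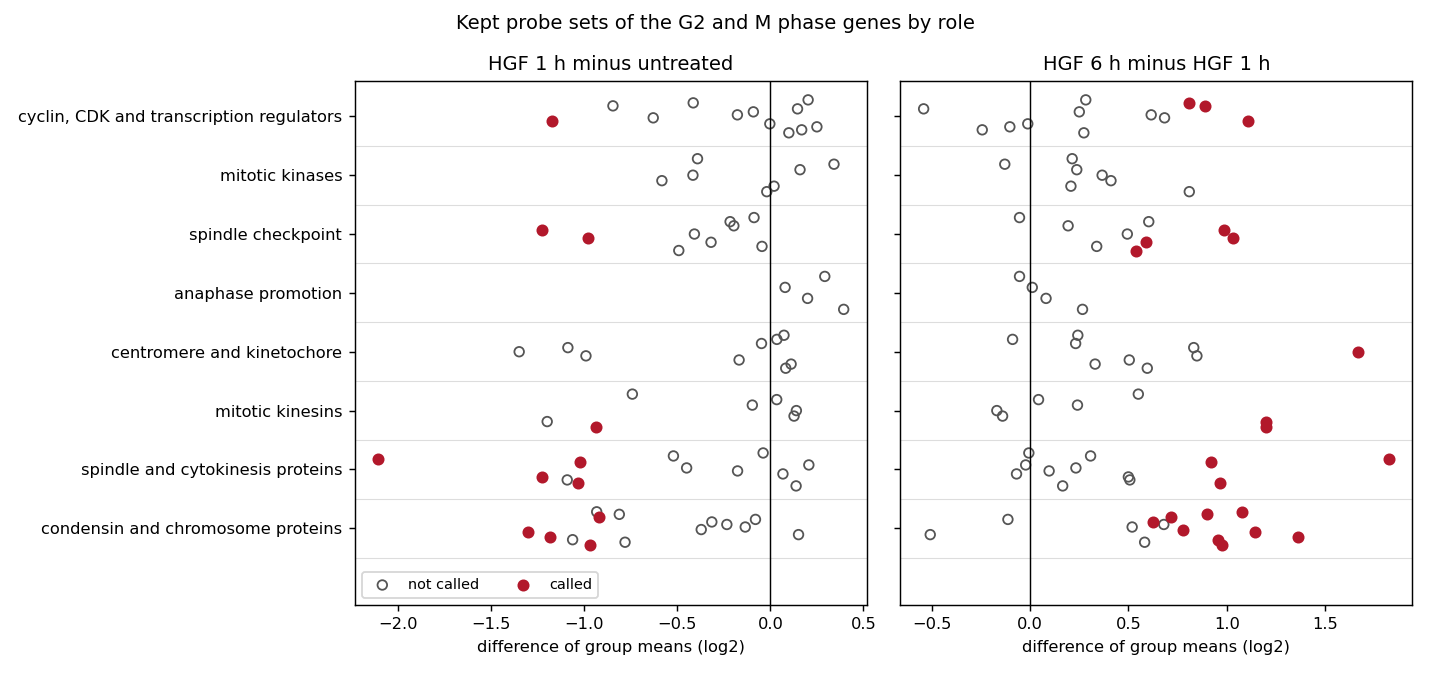
Difference of group means (log2, horizontal axis) for the 74 kept probe sets of the G2 and M phase genes, by role (rows), for HGF 1 h minus untreated and for HGF 6 h minus HGF 1 h, where filled points are called (limma adjusted p under 0.05) and open points are not. The called points lie on the left in the first panel, down to -2.11 in ASPM, and on the right in the second, up to 1.82 in ASPM.

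Between 1 and 6 h of HGF, 16 of the 53 kept genes rose and 0 fell, while 13.5% of all kept genes were called higher and 8.19% lower. The median difference of the 53 genes was 0.28, against -0.02 over all kept probe sets. The HGF 6 h and HGF 1 h arrays did not overlap for 44 of the 74 probe sets in the direction of a higher value at 6 h and for 4 in that of a lower one, where 32.5% of all kept probe sets were without overlap and higher and 33.9% without overlap and lower. The 16 genes held 10 of the 11 that were lower after 1 h, which is 90.9% of that list and 62.5% of this one. Both comparisons use the HGF 1 h arrays, with opposite sign, so the overlap is given as a description. HMMR stood in the first list alone, and CCNA2, BUB3, CENPE, KIF14, NCAPG and MKI67 in the second alone. Leaving out HGF 1 h replicate 1 or HGF 6 h replicate 2 gave a count of 0, leaving out HGF 6 h replicate 1 a count of 1, and leaving out HGF 1 h replicate 2 a count of 21.

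The condensin and chromosome group had most of its genes among those that rose, with 5 of 7. SMC4 was at 10.90 and 10.78 after 6 h on the brighter probe set, against 9.10 and 9.85 after 1 h, and rose by 1.36 (SE 0.26, limma adjusted p = 0.00849). SMC2 was at 8.43 on both arrays after 6 h on its brighter probe set, against 6.81 and 7.77 after 1 h, and rose by 1.14 (SE 0.27, limma adjusted p = 0.0172). Both probe sets of each of these genes were called. NCAPG, the condensin I subunit, was at 7.98 and 8.39 after 6 h on the brighter of its 2 probe sets, against 6.71 and 7.51 after 1 h, and rose by 1.08 (SE 0.30, limma adjusted p = 0.0322). TOP2A was at 8.70 and 9.02 after 6 h on 1 of its 2 probe sets, against 7.85 and 7.93 after 1 h, and rose by 0.98 (SE 0.22, limma adjusted p = 0.0143). In all of these the arrays of the 2 times did not overlap. The other probe set of NCAPG rose as well, by 0.90, and that of TOP2A differed by 0.58 without a call. NCAPD2 differed the other way, by -0.51, and was not called (limma adjusted p = 0.165).

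ASPM was at 8.49 and 8.62 after 6 h, against 6.18 and 7.28 after 1 h, and rose by 1.82 (SE 0.36, limma adjusted p = 0.00944). CENPE was at 7.82 and 7.81 after 6 h, against 5.73 and 6.57 after 1 h, and rose by 1.67 (SE 0.37, limma adjusted p = 0.0136). KIF11 was at 7.89 and 7.75 after 6 h, against 6.58 and 6.65 after 1 h, and rose by 1.20 (SE 0.22, limma adjusted p = 0.00716). These are the spindle pole protein, the chromosome-carrying motor and the pole-separating motor, and in each the 6 h arrays were above the 1 h arrays by at least a full unit. KIF14 was at 8.22 and 8.17 after 6 h, against 6.40 and 7.59 after 1 h, and rose by 1.20 (SE 0.35, limma adjusted p = 0.0366). DLGAP5 rose by 0.96 and ECT2 by 0.92. HMMR, by contrast, was at 8.31 and 8.35 after 6 h, against 7.44 and 8.22 after 1 h, with a difference of 0.50 that was not called (limma adjusted p = 0.164). Among the genes that rose, the 1 h mean was under 7.31 for ASPM, CENPE, KIF11, KIF14, SMC2, NCAPG, MAD2L1 and ECT2. The size of those rises is only approximate.

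CDK1 was at 9.65 and 9.66 after 6 h on the probe set called at 1 h, against 8.19 and 8.92 after 1 h, and rose by 1.10 (SE 0.22, limma adjusted p = 0.00944). A second CDK1 probe set rose by 0.89 and the third differed by 0.68 (limma adjusted p = 0.156). CCNA2 rose by 0.81 on 1 of its 2 probe sets (SE 0.24, limma adjusted p = 0.0403). MAD2L1 was at 7.80 and 8.36 after 6 h, against 7.01 and 7.09 after 1 h, and rose by 1.03 (SE 0.22, limma adjusted p = 0.0126). TTK was at 8.70 and 8.71 after 6 h, against 7.25 and 8.19 after 1 h, and rose by 0.99 (SE 0.27, limma adjusted p = 0.0297). BUB3 rose by 0.54 and 0.59 on 2 of its 4 probe sets. The rise of TTK was 0.51 without HGF 1 h replicate 1, of KIF14 0.61 and of SMC2 0.66. No kinase outside the checkpoint and no anaphase gene was called, and PLK1 was at 9.88 and 10.31 after 6 h, against 9.11 and 9.47 after 1 h, a difference of 0.81 (SE 0.28, limma adjusted p = 0.0654).

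MKI67 moved both ways between the HGF times. The probe set with the largest change was at 7.95 and 8.25 in untreated cells, 7.67 and 7.79 after 1 h, 8.49 and 8.53 after 6 h and 7.58 and 7.88 after 24 h. The 6 h arrays stood above those of the other HGF times, by 0.78 over 1 h (SE 0.18, limma adjusted p = 0.0162), and the 24 h arrays differed from them by -0.78 (SE 0.18, limma adjusted p = 0.0142). A second probe set was called both times, by 0.62 and -0.54. The remaining 2 probe sets of MKI67 had the same signs and were not called.

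From 6 to 24 h with HGF, 1 kept member was higher and 2 were lower, while 8.16% of all kept genes were called higher and 14.1% lower. CDC25C, the phosphatase that activates CDK1 at mitotic entry, was at 7.60 and 8.11 after 24 h, against 6.81 and 7.21 after 6 h, and rose by 0.84 (SE 0.20, limma adjusted p = 0.0171). The 6 h mean of CDC25C was under 7.31, so the size of its rise is only approximate. Besides MKI67, BUB3 fell, and 1 probe set was at 8.46 and 8.73 after 24 h, against 9.03 and 9.21 after 6 h, a fall of 0.52 (SE 0.16, limma adjusted p = 0.0467). A second probe set of BUB3 fell by 0.44 (SE 0.14, limma adjusted p = 0.0467), and its other 2 probe sets differed by -0.30 and -0.54 without a call. In each called probe set the 24 h and 6 h arrays did not overlap. Such a lack of overlap was common, with 11 of the 74 member probe sets higher without overlap and 22 lower. The share over all kept probe sets is not given for this comparison. With HGF 6 h replicate 1 left out the count was 0. It was 1 with HGF 6 h replicate 2 or HGF 24 h replicate 1 left out, and 5 with HGF 24 h replicate 2 left out.

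Against untreated cells, 0 members were called after 6 h of HGF, where 4.74% of all kept genes were higher and 2.97% lower by limma. An unadjusted limma p of 0.05 was passed by 5 member probe sets, of which 4 were higher. It was passed by 2357 of all kept probe sets, a larger share than among the members. PLK1 had the largest positive difference, at 9.88 and 10.31 after 6 h, against 8.98 and 9.64 in untreated cells, or 0.79 (SE 0.28, limma adjusted p = 0.113). HMMR had the largest negative one, -0.73 (SE 0.24, limma adjusted p = 0.0953), with both 6 h arrays still below both untreated arrays. ASPM was at -0.28, CDK1 between -0.07 and 0.05, TTK at -0.24 and SMC4 at -0.10 and 0.18. The median of the 53 genes was 0.05.

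After 24 h of HGF, 0 members were called against untreated cells, where 0% of all kept genes were called in either direction by limma. An unadjusted limma p of 0.05 was passed by 1 member probe set. It was passed by 1131 of all kept probe sets, a larger share than among the members. Differences of the 53 genes ran from -0.62 in ASPM to 0.45 in CDC25C, with a median of 0.03. ASPM was at 8.37 and 8.07 after 24 h, against 8.56 and 9.11 in untreated cells. Both arrays stayed under the untreated ones, with a limma adjusted p of 0.532. Between 24 and 1 h, 0 members were called by limma, with 0.0157% of all kept genes higher and 0% lower. An unadjusted limma p of 0.05 was nevertheless passed by 24 member probe sets, each of them higher after 24 h. It was passed by 1491 of all kept probe sets in either direction, a smaller share than among the members. The median of the 53 genes was 0.22 for that comparison, and the lowest adjusted p was 0.108. Without HGF 24 h replicate 2 the median was -0.0049, and without HGF 24 h replicate 1 it was 0.42.

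In ITGB4-transduced cells 0 members were called against untreated cells by limma, with 0.0471% of all kept genes higher and 0% lower. An unadjusted limma p of 0.05 was passed by 3 member probe sets, each of them higher. It was passed by 617 of all kept probe sets, a larger share than among the members. The median of the 53 genes was 0.14, 59 of the 74 probe sets were above 0, and the differences ran from -0.18 to 0.52 by the brightest probe set of each gene. MAD2L1 had the largest of these, at 8.52 and 8.58 in ITGB4 cells, against 7.74 and 8.32 in untreated cells, or 0.52 (SE 0.22, limma adjusted p = 0.787). CDK1 was at 9.91 and 9.89 in ITGB4 cells on the probe set called at 1 h, against 9.48 and 9.98 in untreated cells. PLK1 was at 9.32 and 9.57 in ITGB4 cells, against 8.98 and 9.64 in untreated cells. The untreated arrays of CDK1 and PLK1 enclosed those of the ITGB4 cells. One probe set of BUB1 was at 7.92 and 7.91 in ITGB4 cells, against 7.21 and 7.44 in untreated cells, the lowest adjusted p of the members there (limma adjusted p = 0.348).

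A set of well-known members was followed over all groups. ASPM was at 9.20 and 8.21 in ITGB4 cells, TTK at 9.17 and 9.15 and HMMR at 9.14 and 8.63. TOP2A, on the probe set called at 1 h, was at 8.85 and 8.47 in ITGB4 cells, MKI67 at 9.77 and 9.55 on its brightest probe set and BUB1 at 8.32 and 8.30. CCNB1 was at 9.69 and 10.16 in untreated cells, 9.99 and 10.26 after 1 h, 10.21 and 10.61 after 6 h and 9.45 and 10.27 after 24 h, with 10.11 and 10.07 in ITGB4 cells. In CCNB1 the highest array was a 6 h array and the lowest a 24 h array, and no comparison of it was called. After 24 h TTK was at 8.85 and 8.83, HMMR at 8.62 and 8.48, CDK1 at 9.33 and 9.39 and TOP2A at 8.96 and 8.86. All of these 24 h arrays lay above the HGF 1 h arrays of the same probe set, without a call.

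In all 5 groups more member probe sets stood higher on replicate 2 than on replicate 1, in the ITGB4 cells by a small margin. On the untreated arrays, all 74 kept probe sets were higher on replicate 2 than on replicate 1, by a median of 0.50. The same held for 68 probe sets after 1 h of HGF (median 0.31), 65 after 6 h (median 0.24), 59 after 24 h (median 0.30) and 39 in the ITGB4 cells (median 0.02). Over all kept probe sets the medians lay between -0.04 and 0.07. Of these, 54.43% were higher on replicate 2 in untreated cells and 43.79% in the ITGB4 cells. With HGF the share was 46.58% after 1 h, 54.12% after 6 h and 61.04% after 24 h. A total of 33 member probe sets were higher on replicate 2 in all 5 groups, where 6.9% of all kept probe sets were. In a limma fit of the replicate number with group means, 48 member probe sets passed an unadjusted p of 0.05, each of them higher. Over all kept probe sets 1217 passed, a smaller share. The shift was not particular to the members. Of 62 kept S phase probe sets, 59 were above 0 in this fit and 41 passed, each of them higher. The median was 0.29 over the S phase genes, against 0.31 over the members. With adjustment over all kept probe sets 0 members were called by limma, as were 0% of all kept genes. Without both ITGB4 arrays 11 members were called. The share of all kept genes in that fit is not given here, so the count is not read as particular to the members. The descriptions number the untreated and HGF arrays 1 to 4 for replicate 1 and 7 to 10 for replicate 2, and say nothing of what the numbers mean.

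The same spread is seen in the deviation of the 53 genes from their mean over the 10 arrays. The median deviation was 0.13 and 0.10 on the ITGB4 arrays, -0.26 and 0.30 on the untreated arrays, -0.35 and 0.01 on the HGF 1 h arrays, 0.03 and 0.21 on the HGF 6 h arrays and -0.14 and 0.20 on the HGF 24 h arrays. The HGF 1 h arrays lay below and between the untreated arrays. Without untreated replicate 1 the median difference at 1 h was -0.46, and without untreated replicate 2 it was 0.17, so its sign rested on which of these arrays was used. The direction of the 11 called genes could not turn with any single array left out. On their called probe sets the HGF 1 h and untreated arrays did not overlap. S phase genes had the same order within the untreated group, with 0.17 on replicate 2 and -0.28 on replicate 1. Each group holds an array of each replicate number, so a shift equal in all groups leaves the differences of group means unchanged. The part of a shift that differs between groups was not tested.

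**Figure D3:**
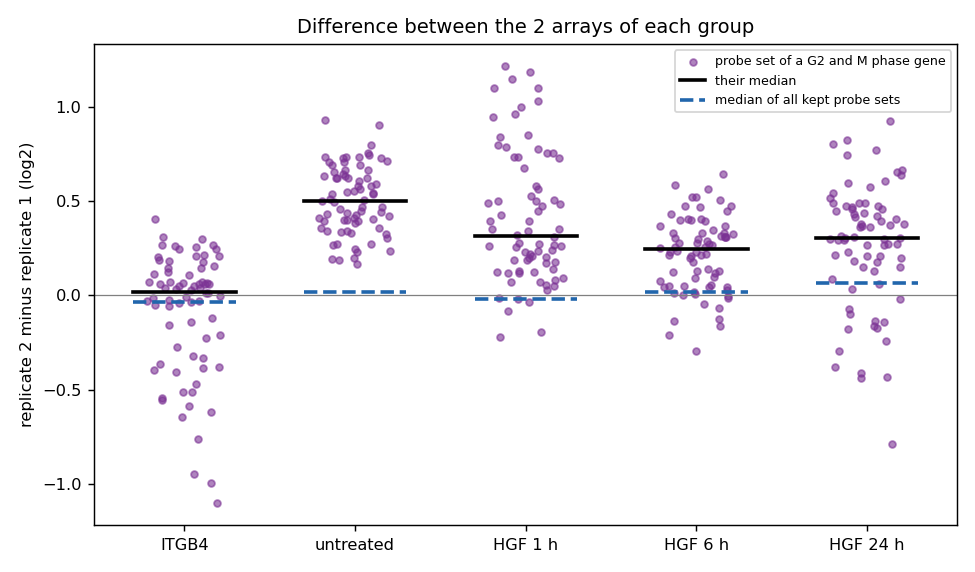
Replicate 2 minus replicate 1 (log2, vertical axis) for each of the 74 kept probe sets of the G2 and M phase genes, by group (horizontal axis), where black bars are their median and dashed bars the median of all kept probe sets. The black bar stands at 0.50 in untreated cells and at 0.02 in ITGB4 cells, and the dashed bars stay between -0.04 and 0.07.

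**Figure D4:**
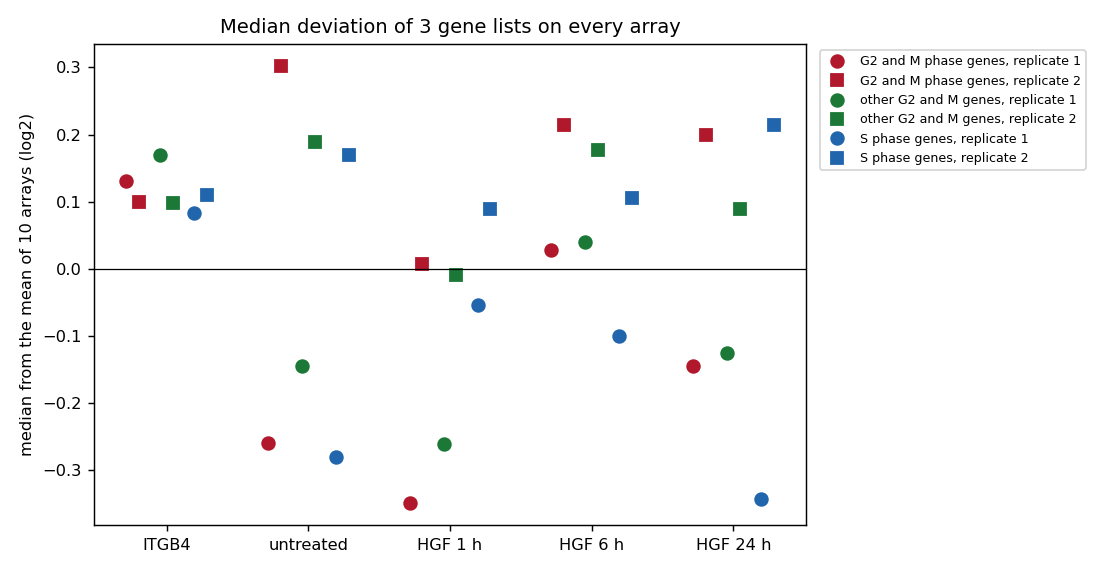
Median deviation from the mean of the 10 arrays (log2, vertical axis) of the G2 and M phase genes, other G2 and M genes and S phase genes on each array, by group (horizontal axis), where circles are replicate 1 and squares replicate 2. The G2 and M phase genes are lowest on HGF 1 h replicate 1, at -0.35, and highest on untreated replicate 2, at 0.30.

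The genes that fell after 1 h had a longer median span on the genome than the other members, given here as a description without a test. By the genomic span of the RefSeq gene, from its first to its last base and introns included, the 11 had a median of 37.9 kb and ran from 11.2 to 78.5 kb. The 42 other kept members had a median of 22.1 kb and ran from 4.05 to 131 kb, and all 6370 kept genes had a median of 29.1 kb. A span over 25 kb was held by 9 of the 11, by 19 of the 42 and by 3503 of the 6370. Over the 53 members the 1 h difference and the span had a Spearman rho of -0.60 (-0.57 with the mean of a gene's probe sets), and over all 6370 genes it was -0.36. The points are genes read from the same 4 arrays and are not independent replicates, so no p is given. The untreated level had a rho of 0.34 with the 1 h difference over the members and -0.02 over all genes. Of the long genes, KIF4A, TPX2 and MELK differed by -0.10, 0.07 and -0.42 and were not called, and of the shorter ones MAD2L1 and CDK1 were called.

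**Figure D5:**
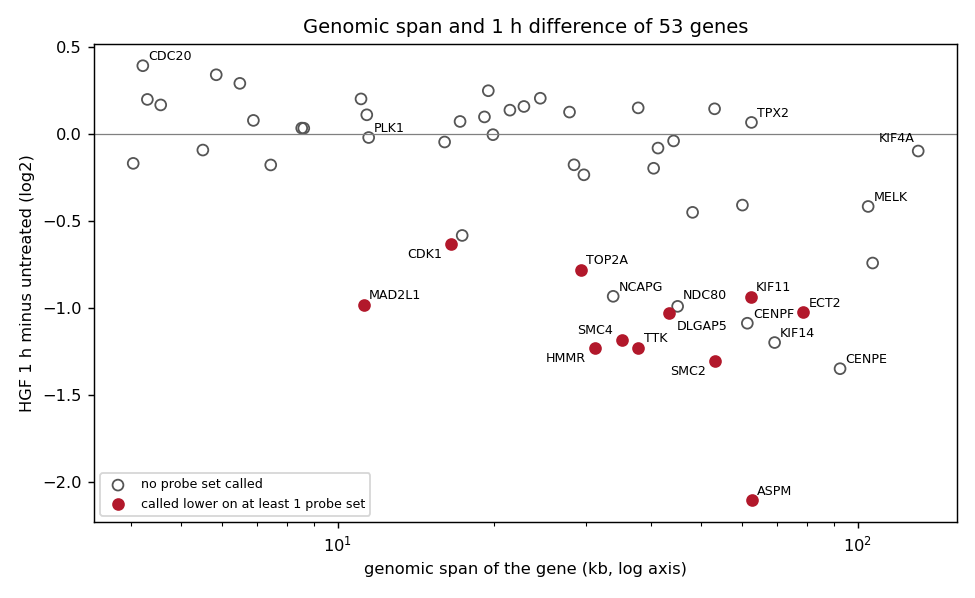
HGF 1 h minus untreated (log2, vertical axis) against genomic span (kb, log horizontal axis) for the 53 kept genes, each by its probe set with the highest mean, where filled points are the 11 genes called lower on at least 1 probe set. ASPM, at 62.5 kb, stands lowest at -2.11 and CDC20, at 4.22 kb, highest at 0.39, and CDK1 and TOP2A are drawn by a probe set that was not called.

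Other genes of the same phase and of S phase were set beside the members. Of all 6370 kept genes, 6.42% were called lower and 0.832% higher after 1 h with HGF. Between 1 and 6 h, 13.5% of them rose and 8.19% fell. Of 45 kept genes on a second list of G2 and M genes, 5 were lower and 0 higher after 1 h with HGF, with a median difference of -0.10, and 9 rose and 2 fell between 1 and 6 h. SMC3, a subunit of cohesin, which holds sister chromatids together, fell by 1.54 after 1 h (SE 0.28, limma adjusted p = 0.0217) and rose by 1.35 between 1 and 6 h (SE 0.28, limma adjusted p = 0.0113). SPDL1, which brings dynein to kinetochores, fell by 0.86 after 1 h (SE 0.22, limma adjusted p = 0.0451). Of 43 kept S phase genes, 1 was lower and 0 higher after 1 h, with a median of 0.11, and 4 rose and 0 fell between 1 and 6 h. The lower one was RFC1, the large subunit of the clamp loader, with a fall of 0.68 (SE 0.17, limma adjusted p = 0.0468). CCNE2, cyclin E2, rose by 1.11 between 1 and 6 h (SE 0.27, limma adjusted p = 0.0210). The difference between the lists was not tested.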

How the data were processed

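RNA of 10 samples was hybridised to single-colour Affymetrix hgu133a arrays. Per the labels, the deposited values are log2 expression values made by the authors with RMA (background correction, quantile normalisation and summary per probe set) in the affy package, whose version is not given in the sources used here. The number of arrays limits the precision. Presence calls were not used, and the Illumina arrays of the study were not analysed here. Probe sets were named by the platform annotation: 19065 carried 1 symbol, 1043 several and 2107 none. Differences were fitted with limma 3.58.1 in R 4.3.3 on the mean of each group over all 10 arrays (5 residual and 5.92 prior degrees of freedom), tested on simulated data. Groups came from the sample titles. A gene with several kept probe sets entered medians and plots by the one with the highest mean. The members and all gene lists were chosen with earlier results of these data known. Values on every array were given for up to 10 called members with the largest differences each way in a comparison, and in every case for ASPM, TTK, HMMR, CDK1, CCNB1, PLK1, BUB1, TOP2A and MKI67. At most 2 genes of another list were named in a comparison, those with the largest called differences. Other filters, normalisations, priors, spreads, probe set rules, the replicate number as a term and the loss of each array were tried.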

Additional observations from a re-analysis of the deposited data

Results flagged for a closer look

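The effect of HGF against the same untreated arrays differed between 1 h and 6 h for 16 members, by the limma test of HGF 6 h minus HGF 1 h itself. Over all kept genes 13.5% were called higher and 8.19% lower in that test. On the log2 scale the difference was 1.82 for ASPM, 1.67 for CENPE, 1.36 for SMC4, 1.20 for KIF11, 1.20 for KIF14, 1.14 for SMC2, 1.10 for CDK1, 1.08 for NCAPG and 1.03 for MAD2L1. It was 0.99 for TTK, 0.98 for TOP2A, 0.96 for DLGAP5, 0.92 for ECT2, 0.81 for CCNA2, 0.78 for MKI67 and 0.59 for BUB3. Between 6 h and 24 h the effect differed for 3 members, by 0.84 for CDC25C, -0.78 for MKI67 and -0.52 for BUB3. Over all kept genes 8.16% were called higher and 14.1% lower there, a larger share than among the members. Groups of 2 arrays are too small for a test of single outlying arrays.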

How the results depend on the processing

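Counts of called members after 1 h of HGF lay between 9 and 15, against 11, for every filter, normalisation, prior and choice of spread or probe set tried, and those between 6 h and 1 h between 14 and 20, against 16. The exception was the ordinary statistic without moderation, which called 0 members in both and 0 between 24 h and 6 h. With the spread of the compared groups alone, 3 members were called after 6 h against untreated cells, 8 between 24 h and 6 h and 3 between 24 h and 1 h. With the replicate block, 15 were called after 1 h, 3 after 6 h, 20 between 6 h and 1 h and 11 between 24 h and 6 h. Shares of all kept genes under these settings are not given here, so the counts are not read as a result about the members. The replicate differences correlated by more than 0.1 in 8 of the 10 pairs of groups, over a range of -0.14 to 0.46. As this did not hold for every pair and the labels give the numbers no meaning, the samples were not treated as paired. Leaving out 1 array in turn, counts ranged from 0 to 16 after 1 h, 0 to 1 after 6 h, 0 to 21 between 6 h and 1 h, 0 to 5 between 24 h and 6 h and 0 to 11 between the replicates, and stayed at 0 for 24 h and ITGB4 against untreated cells and for 24 h against 1 h. The 1 after 6 h came without either HGF 1 h array. The replicate comparison called 11 without both ITGB4 arrays, with the share of all kept genes likewise not given. Over all alternatives the median difference of the members ranged from -0.46 to 0.17 after 1 h, -0.24 to 0.35 after 6 h, -0.26 to 0.29 after 24 h, -0.13 to 0.41 in ITGB4 cells, -0.27 to 0.11 between 24 h and 6 h, -0.0049 to 0.42 between 24 h and 1 h, and 0.13 to 0.48 between 6 h and 1 h. No named gene changed sign in a comparison where it was called. With a single array left out this could not happen, since the arrays compared did not overlap on any called probe set. Each of the 39 called differences lost its call with at least 1 array left out and under the ordinary statistic, and 9 of the 39 did under at least 1 of the other settings. A CHR was found in 36 members over the whole promoter window, against 27 before the start. The planned comparison with protein length was not run, and genomic span was used.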
